A study of Homo sapiens with 16 samples.

Results

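The 38 genes described here make up glycolysis and a set of well-known targets of the hypoxia-inducible factors (HIF). They were taken by name from a list, and all 38 were found among the 60606 gene names counted in every library. The list held 19 enzymes of glycolysis and lactate formation (HK1 to LDHB), 4 membrane carriers of glucose and lactate (SLC2A1, SLC2A3, SLC16A1 and SLC16A3), the kinase PDK1, and 14 other HIF targets. Polyadenylated RNA of 16 libraries from 2 human renal carcinoma lines, 786-O and A498, was sequenced to compare cells with and without SETD2, a histone lysine methyltransferase often lost in clear cell renal carcinoma. The 786-O cells were wild type (WT) or knocked out (KO) for SETD2, the latter with the labelled genotype SETD2 null. Each genotype spent 72 h in the solvent DMSO or in 100 nM of A1331852, which blocks the anti-apoptotic protein BCL-XL, and each of these 4 groups gave 3 libraries. The A498 cells received no treatment and were labelled SETD2 deficient, genotype SETD2 null (2 libraries), or SETD2 addback, genotype SETD2 WT (2 libraries). All cells grew in RPMI medium with 10% fetal bovine serum, and no library came from cells under low oxygen by its labels. The labels do not say whether the KO and add-back cells were clones or pools, nor whether replicates were separate cultures, so the p-values below measure only the spread between these libraries.

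Glycolysis turns glucose into pyruvate through a chain of cytosolic enzymes, and lactate dehydrogenase then reduces pyruvate to lactate, which leaves the cell through monocarboxylate carriers. HIF is a dimer of ARNT with HIF1A or EPAS1, and the VHL protein marks both of these oxygen-sensitive subunits for destruction when oxygen is present. Clear cell renal carcinoma, 786-O and A498 among its lines, usually lacks working VHL, so HIF stays active in normal oxygen. 786-O cells are known to rely on EPAS1, as they make no full HIF1A protein.

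Libraries held 14172118 to 36037616 counted fragments, and the 4 DMSO libraries of batch 2 (replicates 1 and 2 of each genotype) were the deepest, at 29753887 to 36037616. The remaining 786-O libraries formed batch 1, and A498 formed batch 3. SETD2 itself was at 68.6, 70.9 and 65 CPM (counts scaled to library size with TMM factors) in WT DMSO libraries and at 30.0, 28 and 30.0 in KO DMSO libraries. Under A1331852 it was at 71.2, 68.6 and 63.1 in WT and at 29.4, 47.7 and 52.5 in KO. In A498 it was at 45 and 53.9 in the add-back and at 41.1 and 59.4 in the deficient cells, so RNA level did not separate these groups and their names below rest on the labels. Summed CPM of 6 renal epithelial markers lay between 569 and 966 over all libraries, and all 6 were found. Leukocyte markers summed to at most 2.39 CPM and endothelial markers to at most 0.427. CD3E was at 0 in 15 of 16 libraries and PTPRC in 12 of 16. CD14 was above 0 in all 16, and CD14, LYZ and CD79A reached 1.44, 1.03 and 0.692 CPM. COL1A2 and DCN were at most 0.106 and 0.166 CPM, while PDGFRB reached 1.71 and LUM 9.02. Fibroblast markers summed to 4.15 to 14.6 CPM in 786-O and 44.3 to 66.7 in A498, where COL1A1 made up most of the sum. Renal marker sums differed between some groups: they were 657 to 663 in the add-back and 925 to 966 in the deficient A498 libraries, and under A1331852 569 to 664 in WT and 698 to 919 in KO. In DMSO they overlapped, at 727 to 965 in WT and 636 to 846 in KO. Their part in the results was not tested. Mitochondrial mRNAs took 1.13 to 1.33% of the counts in KO cells under A1331852, 1.64 to 2.23% in WT cells under A1331852, and 2.34 to 3.46% in DMSO. The part of that difference in the results on A1331852 was not tested. The labels give the same numbers to WT and KO replicates, and same-numbered libraries deviated together within each treatment (r = 0.228 to 0.724 across genes). Replicates 1 and 2 of unlike number did so as well, at 0.497 and 0.549 in DMSO and 0.191 and 0.124 under A1331852. In both genotypes replicate 3 stood apart from replicates 1 and 2, in DMSO and in A1331852.

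HIF binds DNA at the short letters ACGTG or GCGTG in the promoters and enhancers of its targets. These letters were searched on both strands, with overlaps counted, in the RefSeq promoter table (GRCh38.p14), which holds 300 bases per start, 250 before it and 50 after it. An entry was found for 32 of 38 members, and for the 14 members with more than 1 start the first entry was used. At least 1 match lay in the promoters of 22 of the 32 members (68.8%), against 48.4% of all 35116 promoters of that length. The share was 73.7% for the 19 enzymes and 70% for 10 other targets. LDHA and BNIP3 had 6 matches each. HK1, PFKM, PFKP, TPI1, PGAM1, SLC16A3, PDK1, MXI1, EGFR and TGFA had none. The 250 bases before the start are printed for 3 genes: ENO2, the neuronal form of enolase and the member with the largest fall from WT to KO in DMSO, from chr12:6914330-6914579 on the plus strand; HK2, the inducible hexokinase and the enzyme with the largest rise in A498, from chr2:74833877-74834126 on the plus strand; and CA12, a membrane carbonic anhydrase that handles acid and was called higher in both lines, from chr15:63381847-63382096 on the minus strand. Capitals mark each match, written CACGT or CACGC where it lies on the opposite strand.
ENO2: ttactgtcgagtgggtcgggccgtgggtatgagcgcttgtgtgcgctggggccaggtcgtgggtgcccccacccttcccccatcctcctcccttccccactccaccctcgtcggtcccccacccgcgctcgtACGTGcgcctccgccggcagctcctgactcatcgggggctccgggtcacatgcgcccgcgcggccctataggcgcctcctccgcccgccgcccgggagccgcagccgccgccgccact
HK2: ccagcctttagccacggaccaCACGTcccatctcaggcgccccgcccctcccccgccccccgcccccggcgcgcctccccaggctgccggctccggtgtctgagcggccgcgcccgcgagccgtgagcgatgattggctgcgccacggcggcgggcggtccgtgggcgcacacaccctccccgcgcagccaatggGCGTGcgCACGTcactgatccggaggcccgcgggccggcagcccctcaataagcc
CA12: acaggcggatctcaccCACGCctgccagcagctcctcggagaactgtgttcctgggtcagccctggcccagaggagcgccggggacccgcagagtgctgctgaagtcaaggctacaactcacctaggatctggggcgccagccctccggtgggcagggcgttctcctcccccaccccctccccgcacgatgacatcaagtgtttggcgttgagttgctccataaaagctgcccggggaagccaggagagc
In these windows ENO2 had 1 match, HK2 had 3 and CA12 had 1. A match describes the letters alone and shows no binding.

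Corrected for exon length, the enzymes of the lower part of the pathway led the list in both lines. GAPDH, which oxidises glyceraldehyde phosphate, came first, at a mean of 1209 CPM per kilobase in 786-O and 1639 in A498. ENO1, PKM, TPI1 and PGAM1 filled the next 4 places in both lines, between 298 and 441 CPM per kilobase in 786-O and between 265 and 357 in A498. At the other end CA9, the carbonic anhydrase used as a marker of HIF1A activity, and NDUFA4L2, a small mitochondrial protein, were close to 0. CA9 reached at most 0.199 CPM in 786-O and 0.838 CPM in A498. NDUFA4L2 reached at most 0.714 CPM in any library. Both failed the low-count filter in 786-O, so 36 of 38 members were tested there, and 37 of 38 (all but NDUFA4L2) were tested in A498. ENO2 and ALDOC differed most between the lines: ENO2 was at 16.8 CPM per kilobase in 786-O and 0.382 in A498, and ALDOC, an aldolase, was at 0.306 and 7.83. Levels of ALDOA and LDHB are uncertain, because 42.8% and 33.4% of their exon bases are shared on the same strand with another gene and such fragments were not counted. GAPDH, PGAM1, ENO1, LDHA, TPI1, PGK1 and PKM have processed pseudogenes of near-identical sequence, and only uniquely placed fragments were counted, so their levels are uncertain too.

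**Figure D1:**
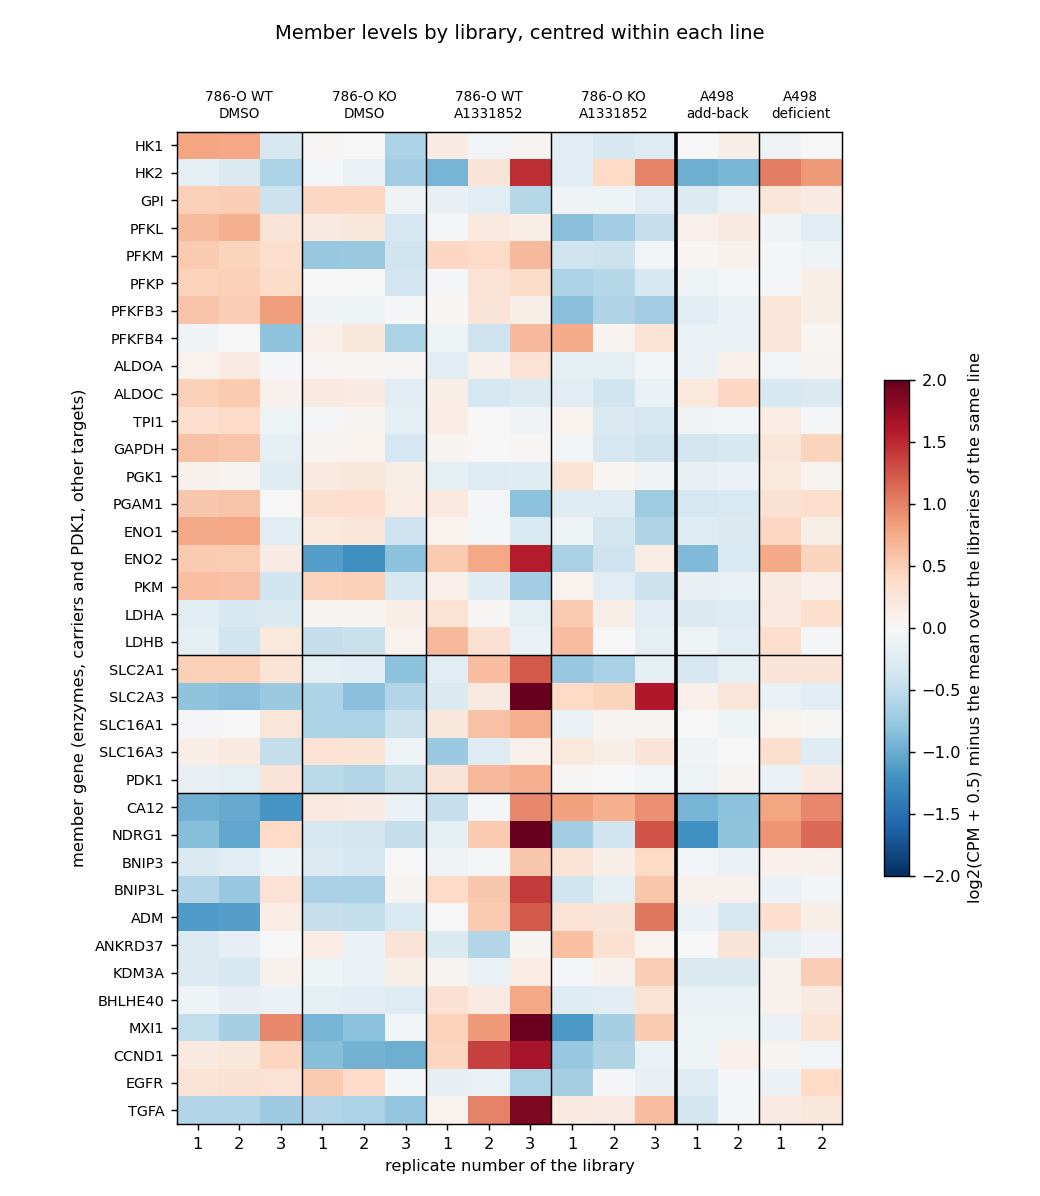
Levels of the 36 members other than CA9 and NDUFA4L2 in 16 libraries. Colour gives log2(CPM + 0.5) minus the mean of that gene over the libraries of the same line, columns are libraries with their replicate number, and black lines separate groups and roles. Replicate 3 of both A1331852 groups is red for most of the lower rows (carriers and other targets), CCND1, PFKM and ENO2 are lower in KO than in WT, and HK2, CA12 and NDRG1 are higher in deficient than in add-back A498 cells.

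SETD2 knockout in 786-O went with lower RNA for the phosphofructokinases, for ENO2, for the lactate carrier SLC16A1, for PDK1 and for the cyclin CCND1, with and without A1331852. In DMSO 10 of 36 members passed the test (edgeR quasi-likelihood, Benjamini-Hochberg adjusted p under 0.05), against 18.5% of all 16260 genes tested. Of these, 9 fell and 1, CA12, rose, where 10.2% of all genes fell and 8.29% rose. Under A1331852 11 of 36 fell and 0 rose, against 28.2% of all genes called, 15% falling and 13.2% rising. The counts at an unadjusted p under 0.05 were 12 lower and 1 higher in DMSO, and 15 lower and 3 higher under A1331852, where 32% and 39.6% of all genes had such a p. With the replicate number as a block within each treatment, 15 of 36 passed in DMSO (28.6% of all genes) and 18 of 36 under A1331852 (38.6% of all genes), with 15 lower and 3 higher in the latter. Of the 10 members called in DMSO and the 11 called under A1331852, 8 were called in both, all with the same sign. These comparisons share no library, but one fit gave both. In DMSO 6 of 19 enzymes (31.6%), 2 of 5 carriers and PDK1 (40%) and 2 of 12 other targets (16.7%) passed. Those 2 other targets were CA12, higher, and CCND1, lower. Under A1331852 5 of 19 enzymes (26.3%), 3 of 5 carriers and PDK1 (60%) and 3 of 12 other targets (25%) passed. The shares of all genes were 18.5% and 28.2%. The median log2 change of the 19 enzymes was -0.25 in DMSO and -0.21 under A1331852, beside medians over all genes of -0.02 and -0.01. For the 12 other targets it was 0.01 in DMSO and -0.28 under A1331852. In such bulk libraries fewer cells with a transcript and less of it per cell cannot be told apart.

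Batch bears on the DMSO comparison, since batch 2 held replicates 1 and 2 of both genotypes and batch 1 held replicate 3. Within batch 2 alone 25 of 36 members passed, 15 lower and 10 higher, against 55.7% of all genes. Within batch 1, where DMSO had 1 library per genotype and the spread came from the A1331852 groups, 0 of 37 passed edgeR's test (0.305% of all genes did) and 5 had an unadjusted p under 0.05. Leaving out the batch 1 library of KO or WT brought the DMSO count to 4 or 5, where 10.2% and 10.6% of all genes passed. All 10 members called in the joint fit had the same sign in each batch. Without the batch term 6 of 36 passed (9.16% of all genes), and HK1, PFKL, PFKP and PDK1 were the 4 that no longer did (adjusted p = 0.14, 0.131, 0.0649 and 0.101). All A1331852 libraries were of batch 1. Fitted in that batch alone, 7 of 37 members fell from WT to KO under A1331852 and 0 rose (13.7% of all genes called), and SLC16A1, PDK1, BNIP3L and MXI1 no longer passed (adjusted p = 0.0722, 0.0664, 0.139 and 0.0705).

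Hexokinase opens the pathway, and its housekeeping form HK1 was at 269.6, 267 and 125 CPM in the 3 WT DMSO libraries (in the order of replicates 1, 2 and 3, as below) and at 157, 156 and 100.0 in KO. KO was lower than WT within each batch, but WT replicate 3 lay below KO replicates 1 and 2. The log2 change was -0.62 ± 0.12 (SE; adjusted p = 0.00339). Under A1331852 HK1 was at 174, 149 and 161 CPM in WT and 135, 125 and 129.7 in KO, without overlap, with a log2 change of -0.31 ± 0.12 (adjusted p = 0.0625, or 0.045 with the replicate block).

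Phosphofructokinase makes the first step that commits sugar to glycolysis, and its 3 subunit genes were all lower in KO, in both treatments. PFKM, the muscle-type subunit, at chromosome 12, 48105139 to 48146404 (hg38), was at 82, 77.4 and 72.7 CPM in WT DMSO libraries and 33.5, 33.7 and 43.3 in KO. The groups did not overlap, and the log2 change was -1.07 ± 0.14 (SE; adjusted p = 0.000411). Under A1331852 PFKM was at 76.1, 74.7 and 89.3 CPM in WT and 43.1, 42.3 and 54.5 in KO, again without overlap. Its log2 change there was -0.78 ± 0.14 (adjusted p = 0.00194). Both PFKM calls held when any 1 library was left out.

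PFKP, the platelet-type subunit, was the most abundant of the 3. It was at 1293, 1302 and 1206 CPM in WT DMSO libraries and 946, 930.1 and 717 in KO, a log2 change of -0.55 ± 0.13 (SE; adjusted p = 0.0138). Every KO library was below every WT library. That call was lost without WT DMSO replicate 3 (adjusted p = 0.107), KO DMSO replicate 3 (adjusted p = 0.156) or KO DMSO replicate 2 (adjusted p = 0.0528). Under A1331852 the values were 915, 1153 and 1216 in WT and 612, 631 and 743 in KO, also without overlap, with a log2 change of -0.72 ± 0.14 (adjusted p = 0.00219). PFKL, the liver-type subunit, was at 332, 352 and 258 CPM in WT DMSO and 244, 251 and 170.4 in KO, a log2 change of -0.50 ± 0.12 (adjusted p = 0.012). Here too the groups were apart, although WT replicate 3 exceeded KO replicate 2 by little. The DMSO call was lost without WT DMSO replicate 3 (adjusted p = 0.079), KO DMSO replicate 3 (adjusted p = 0.116), WT DMSO replicate 2 (adjusted p = 0.057) or KO DMSO replicate 1 (adjusted p = 0.0566). Under A1331852 PFKL was at 212, 247 and 235 CPM in WT and 121, 132 and 156 in KO, a log2 change of -0.76 ± 0.12 (adjusted p = 0.000728).

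PFKP kept nearly the same share of the 3 subunit genes: it made up 77.4, 77 and 79.9% of their summed CPM per kilobase in WT DMSO and 79.2, 78.5 and 78.6% in KO. PFKM made up 5.27, 4.91 and 5.17% in WT DMSO and 3.01, 3.05 and 5.09% in KO, where replicate 3 of batch 1 lay within the WT range.

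PFKFB3 makes the sugar bisphosphate that activates phosphofructokinase, and its gene lies at chromosome 10, 6144934 to 6254644 (hg38). It was at 410.3, 392 and 496 CPM in WT DMSO libraries and 265, 259 and 273 in KO. All KO libraries were lower, with a log2 change of -0.69 ± 0.11 (SE; adjusted p = 0.00146). Under A1331852 PFKFB3 was at 285, 333 and 301 CPM in WT and 155, 183 and 171 in KO, a log2 change of -0.85 ± 0.11 (adjusted p = 0.000248). It thus stood in 4 levels, highest in WT DMSO and lowest in KO under A1331852, with the WT A1331852 and KO DMSO libraries between and close to each other. Its relative PFKFB4 was at 13.4 to 39.9 CPM and was called in neither comparison.

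Among enzymes ENO2 had the largest fall. The gene lies at chromosome 12, 6913745 to 6923698 (hg38), and its promoter is printed above. It was at 88.3, 87 and 68.8 CPM in WT DMSO libraries and 28.3, 26 and 34.3 in KO, a mean of 81.4 ± 10.9 (SD, n = 3) against 29.5 ± 4.33. The groups lay far apart, with a log2 change of -1.46 ± 0.27 (SE; adjusted p = 0.00352). Under A1331852 it was at 88.8, 106 and 183 CPM in WT and 39, 46 and 68.3 in KO. The highest library of each group was replicate 3, and all KO libraries were below all WT libraries (log2 change -1.30 ± 0.27, adjusted p = 0.00421). ENO2 was a small part of the enolase RNA: per kilobase it was 2.81, 2.73 and 4.29% of ENO1 plus ENO2 in WT DMSO and 1.33, 1.2 and 2.48% in KO.

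Other enzymes of the lower pathway depended on batch and pairing. GAPDH was at 4232, 4161 and 2474 CPM in WT DMSO libraries and 2935, 2977 and 2242 in KO. WT replicate 3 lay below the KO libraries of batch 2, and KO was below WT within each batch. The log2 change was -0.38 ± 0.13 (SE; adjusted p = 0.06, or 0.0389 with the replicate block). ENO1 was at 3726, 3774 and 1869 CPM in WT and 2556, 2594 and 1643 in KO, with the same order within batches (log2 change -0.42 ± 0.15, adjusted p = 0.078, or 0.0195 with the block). LDHA, the subunit that favours lactate formation, was at 1267, 1194 and 1219.8 CPM in WT and 1546, 1545 and 1635 in KO, with all KO libraries above all WT libraries. Its log2 change was 0.37 ± 0.18 (adjusted p = 0.177, or 0.0226 with the block). PGK1, which makes the first ATP of the pathway, was also above WT in every KO library in DMSO and A1331852, at 0.23 ± 0.12 and 0.33 ± 0.12 on the log2 scale. Its adjusted p was 0.192 in DMSO and 0.055 under A1331852, the latter 0.0362 with the block and 0.0238 without KO A1331852 replicate 3.

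In DMSO the batch 1 library, replicate 3, was the lowest of its group in both genotypes for 14 of 19 enzymes (73.7%), against 34.5% of all genes. These 14 were HK1, HK2, GPI, PFKL, PFKP, PFKFB4, ALDOA, ALDOC, TPI1, GAPDH, PGK1, PGAM1, ENO1 and PKM. PKM, the last enzyme before pyruvate, was at 5224, 5205 and 2639 CPM in WT DMSO and 4789.8, 4840.3 and 2763 in KO, so batch separated its libraries and genotype did not.

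Among the carriers, SLC2A1 (GLUT1) brings glucose into the cell, and its gene lies at chromosome 1, 42925353 to 42958893 (hg38). It was at 1118, 1115 and 975 CPM in WT DMSO libraries and 700.4, 688 and 455 in KO, without overlap. Its log2 change was -0.81 ± 0.28 (SE; adjusted p = 0.0639, or 0.00447 with the block). Under A1331852 SLC2A1 was at 696, 1229.6 and 1874 CPM in WT and 476, 513 and 705 in KO. There WT replicate 1 lay just below KO replicate 3, but each KO library was below the WT library of its number (log2 change -1.17 ± 0.28, adjusted p = 0.00934).

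SLC16A1 (MCT1) carries lactate and pyruvate in both directions. It was at 93.7, 95.5 and 113 CPM in WT DMSO libraries and 61.4, 61.3 and 71.2 in KO. All KO libraries were lower (log2 change -0.63 ± 0.13 (SE), adjusted p = 0.00565), and the call was lost without KO DMSO replicate 3 (adjusted p = 0.053). Under A1331852 the values were 112, 144 and 157 in WT and 87, 99.5 and 99.7 in KO, a log2 change of -0.53 ± 0.13 (adjusted p = 0.00964). SLC16A3 (MCT4), the carrier of lactate export, was called in neither comparison: its log2 changes were 0.21 ± 0.17 in DMSO and 0.46 ± 0.17 under A1331852 (adjusted p = 0.0663, or 0.0208 with the block). The SLC16A3 share of the carrier pair per kilobase was 69.5, 71.2 and 74.3% in WT under A1331852 and 85.1, 82.3 and 83.7% in KO, without overlap, and no test was run on shares. The SLC16A3 level itself passed without WT A1331852 replicate 3 (adjusted p = 0.00346). SLC2A3 (GLUT3) was at 11.2, 11 and 11.7 CPM in WT DMSO and 12.7, 11 and 13.2 in KO.

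PDK1 blocks the entry of pyruvate into mitochondrial oxidation. It was at 15.9, 15.4 and 21.3 CPM in WT DMSO libraries and 12, 11.5 and 12.9 in KO. The groups did not overlap, and the log2 change was -0.51 ± 0.15 (SE; adjusted p = 0.0322). This call was lost without WT DMSO replicate 3 (adjusted p = 0.185), KO DMSO replicate 3 (adjusted p = 0.245), WT DMSO replicate 1 (adjusted p = 0.0931), WT DMSO replicate 2 (adjusted p = 0.0758), KO DMSO replicate 1 (adjusted p = 0.0787) or KO DMSO replicate 2 (adjusted p = 0.099). Under A1331852 PDK1 was at 21.1, 28 and 29.6 CPM in WT and 18, 17.8 and 16.9 in KO, a log2 change of -0.58 ± 0.15 (adjusted p = 0.0122).

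Of the other targets, CCND1 encodes cyclin D1, which drives entry into the cell cycle and is a known EPAS1 target in renal cancer. The gene lies at chromosome 11, 69641156 to 69654474 (hg38). It was at 605, 625 and 719 CPM in WT DMSO libraries and 297, 277 and 271 in KO. The KO libraries were all lower, with a log2 change of -1.19 ± 0.26 (SE; adjusted p = 0.00755). That call was lost without WT DMSO replicate 3 (adjusted p = 0.0589) or KO DMSO replicate 3 (adjusted p = 0.0728). Under A1331852 CCND1 was at 723, 1386 and 1689 CPM in WT and 316, 352 and 489 in KO, a log2 change of -1.71 ± 0.26 (adjusted p = 0.00065). The KO libraries stayed below every WT library, the WT libraries spread widely, and the call held when any 1 library was left out.

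CA12 went the other way. The gene lies at chromosome 15, 63321378 to 63381846 (hg38). It was at 155, 152 and 134 CPM in WT DMSO libraries and 349.8, 343 and 277 in KO. Every KO library was above every WT library, with a log2 change of 1.14 ± 0.27 (SE; adjusted p = 0.012). The call was lost without WT DMSO replicate 3 (adjusted p = 0.0553), KO DMSO replicate 3 (adjusted p = 0.0521), WT DMSO replicate 1 (adjusted p = 0.0539) or WT DMSO replicate 2 (adjusted p = 0.0562). Under A1331852 it was at 221, 301 and 591 CPM in WT and 536, 499.8 and 577 in KO, where WT replicate 3 was the highest of all. The log2 change of 0.53 ± 0.27 did not pass (adjusted p = 0.158), though it did with the block (adjusted p = 0.0221). Without WT A1331852 replicate 3 it was 1.04 (adjusted p = 0.000154).

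MXI1, a repressor that opposes MYC, was at 23.9, 31.6 and 69.5 CPM in WT under A1331852 and 7.45, 10.6 and 24.8 in KO. KO replicate 3 overlapped the WT range, and each KO library was below the WT library of its number. The log2 change was -1.55 ± 0.44 (SE; adjusted p = 0.021), and the call was lost without WT A1331852 replicate 3 (adjusted p = 0.0573), KO A1331852 replicate 1 (adjusted p = 0.082) or KO A1331852 replicate 2 (adjusted p = 0.0903). In DMSO MXI1 was at 12, 10.7 and 33.9 CPM in WT and 8.78, 9.56 and 16.6 in KO, a log2 change of -0.55 ± 0.44 (adjusted p = 0.436, or 0.0248 with the block). BNIP3L, which tags mitochondria for removal, was at 64.1, 71.5 and 131 CPM in WT under A1331852 and 37.5, 43.6 and 72.5 in KO. Here too replicate 3 overlapped, with a log2 change of -0.80 ± 0.28 (adjusted p = 0.0493). Its call was lost without WT A1331852 replicate 2 (adjusted p = 0.0505), WT A1331852 replicate 3 (adjusted p = 0.169), KO A1331852 replicate 1 (adjusted p = 0.179) or KO A1331852 replicate 2 (adjusted p = 0.168). In DMSO BNIP3L was at 32.7, 29.1 and 60.4 CPM in WT and 31.2, 31.4 and 51.1 in KO and was not called (log2 change -0.06 ± 0.28, adjusted p = 0.912).

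**Figure D2:**
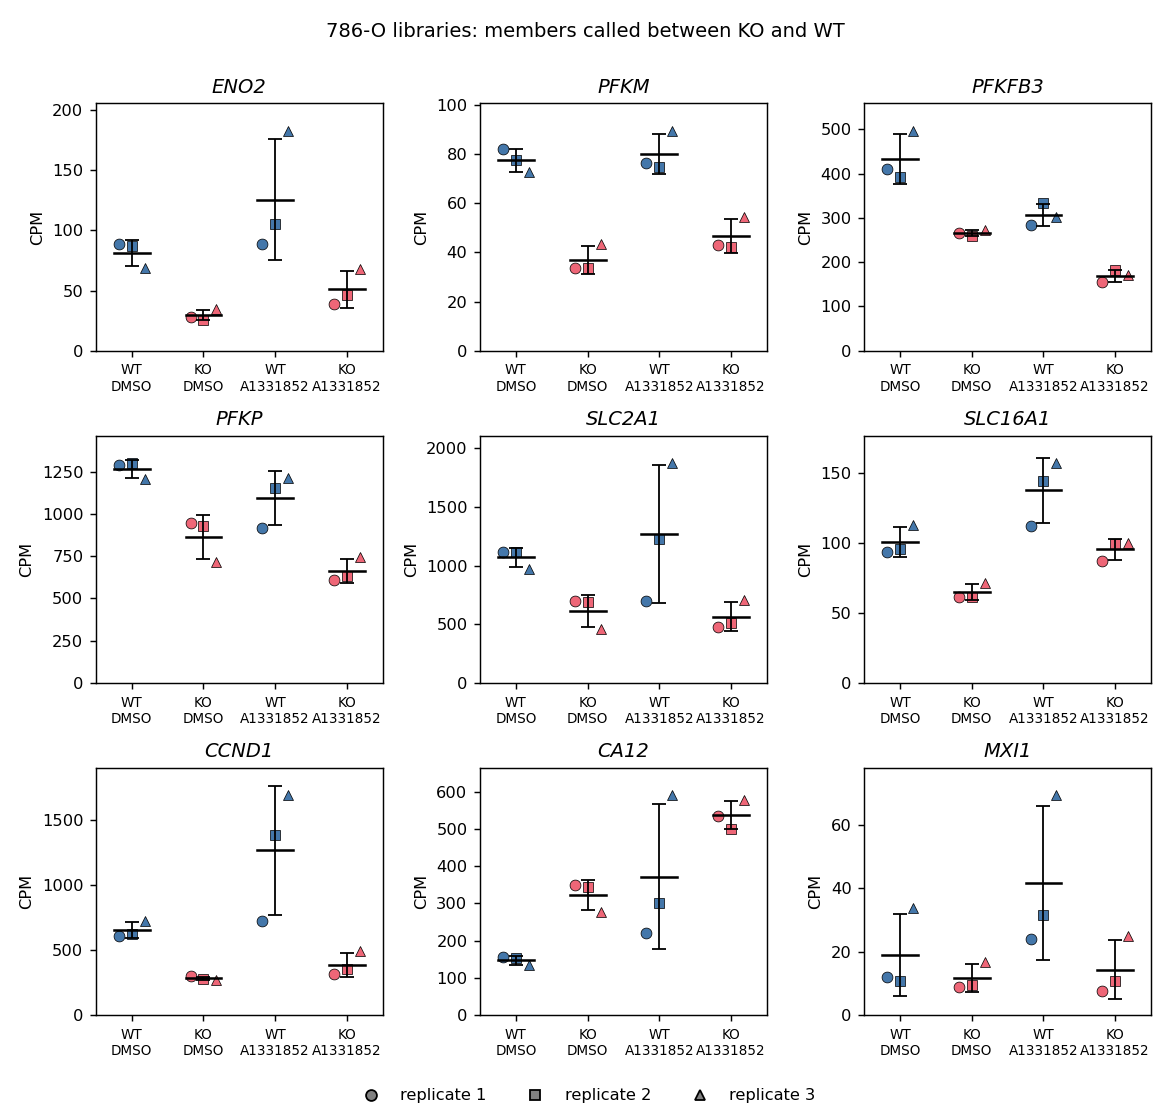
CPM of 9 members in the 12 libraries of 786-O, on linear axes from 0. Points are libraries, their shape gives the replicate number, the thick bar is the group mean and the error bar is the SD (n = 3). For ENO2, PFKM, PFKFB3, PFKP, SLC16A1 and CCND1 the KO points lie below the WT points of the same treatment, CA12 is higher in KO in DMSO, and in A1331852 the triangles of replicate 3 are the highest points for SLC2A1, CA12, CCND1, MXI1 and ENO2.

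From DMSO to A1331852 few members passed, while the replicates of each A1331852 group spread widely. In WT cells 0 of 36 members passed edgeR's test, against 0.141% of all genes (0.0369% higher, 0.105% lower). At an unadjusted p under 0.05 there were 10 (9 higher and 1 lower), against 12.8% of all genes. DESeq2 called 3, against 2.89% of all genes. In KO cells 2 of 36 passed, against 13.5% of all genes (6.46% higher, 7.08% lower). DESeq2 called 5 there, against 18.9% of all genes. At an unadjusted p under 0.05 there were 9 in KO, 7 higher and 2 lower, against 29.1% of all genes. PFKFB3 was called lower in KO. From DMSO to A1331852 its log2 change was -0.62 ± 0.13 (SE) in WT (adjusted p = 0.122) and -0.78 ± 0.14 in KO (adjusted p = 0.00452). All its A1331852 libraries lay below the DMSO libraries of their genotype, which also held for PFKL and EGFR, neither of them called. For ENO2, SLC2A3, CA12, BNIP3, CCND1 and TGFA they lay above in both genotypes, and none of these was called from DMSO to A1331852. How many of all genes lay apart in this way was not counted. HK1 was called higher in KO, with a log2 change of 0.51 ± 0.14 (adjusted p = 0.0337). That call turns on the batch term, as the KO DMSO libraries were at 157, 156 and 100.0 CPM and the KO A1331852 libraries, all batch 1, at 135, 125 and 129.7; without the term the log2 change was -0.09. It was also lost without KO A1331852 replicate 1 (adjusted p = 0.0575), KO A1331852 replicate 2 (adjusted p = 0.0534), KO DMSO replicate 1 (adjusted p = 0.0789) or KO DMSO replicate 2 (adjusted p = 0.0783). Of the DMSO libraries only replicate 3 of each genotype shared batch 1 with A1331852, and in that batch alone 0 of 37 members passed in either genotype, with 3 in WT and 2 in KO at an unadjusted p under 0.05.

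TGFA, a growth factor for the EGF receptor, had the largest estimate among members in WT cells: 285, 284 and 258 CPM in DMSO and 453, 850.3 and 1568 under A1331852. All 3 treated libraries were above the DMSO libraries, and they differed among themselves more than 3-fold (log2 change 1.90 ± 0.42 (SE), adjusted p = 0.129). Without WT A1331852 replicate 1 the adjusted p was 0.0144. In KO cells TGFA was at 285, 276 and 251 CPM in DMSO and 491, 481 and 658 under A1331852, again without overlap (log2 change 1.10 ± 0.41, adjusted p = 0.094). CA12 was at 1.51 ± 0.34 on the log2 scale in WT (adjusted p = 0.129) and 0.91 ± 0.34 in KO (adjusted p = 0.0955). Its WT value passed without WT A1331852 replicate 1 (1.80, adjusted p = 0.0319) or replicate 3 (1.00, adjusted p = 0.0210). CCND1 in WT passed without WT A1331852 replicate 1 alone (1.22, adjusted p = 0.0496; 0.91 ± 0.32, adjusted p = 0.263, with all libraries). The genotype by treatment interaction called 0 of 36 members, against 0.295% of all genes. None had an unadjusted p under 0.05 and DESeq2 called 0, against 10.8% and 2.28% of all genes.

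HIF targets set A1331852 replicate 3 apart in both genotypes. It was the highest library of its group in WT and in KO for 10 of 12 other targets (83.3%) and for 4 of 5 carriers and PDK1 (80%), against 24.6% of all genes. Among enzymes this held for 5 of 19 (26.3%): HK2, PFKM, PFKP, ALDOA and ENO2. Replicate 3 in DMSO was also the highest in both genotypes for 6 of 12 other targets (50%), MXI1 and BNIP3L among them. It was so for 3 of 5 carriers and PDK1 (60%), against 36.7% of all genes. NDRG1, a stress-induced protein linked to growth arrest, was at 333, 552 and 1736 CPM in WT and 234, 289 and 913 in KO under A1331852, so replicate 3 was 3.92 times the mean of the other libraries in WT and 3.49 times in KO. In DMSO NDRG1 was at 211, 186 and 503 CPM in WT and 303, 295 and 274 in KO, with replicate 3 high in WT alone. SLC2A3 was at 16.1, 22.5 and 85.1 CPM in WT and 26.5, 27.3 and 61.6 in KO, and its estimate between genotypes rested on these libraries. That log2 change was -0.10 ± 0.51 (adjusted p = 0.904), and without WT replicate 3 it was 0.98 (adjusted p = 0.0284). HK2 was at 30.2, 69.9 and 163 CPM in WT and 49.5, 76.6 and 116 in KO, and in DMSO at 51.3, 47.3 and 37.4 and 56.6, 52.7 and 35.6. ADM, which encodes the vessel-dilating peptide adrenomedullin, was also highest in replicate 3, at 87.3, 127 and 208 CPM in WT and 108, 106 and 184 in KO. In contrast 7 enzymes, GPI, TPI1, PGAM1, ENO1, PKM, LDHA and LDHB, were lowest in replicate 3 of both A1331852 groups, which held for 26.3% of all genes. The labels give no reason for these libraries to differ, and what set them apart was not tested.

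With both A1331852 replicates 3 left out, an analysis chosen after seeing these values, 18 of 36 members passed between KO and WT under A1331852, 12 lower and 6 higher, against 36.5% of all genes. From DMSO to A1331852, 3 of 36 passed in WT (1.27% of all genes) and 10 of 36 in KO (31% of all genes), and the interaction called 1 of 36 (5.51% of all genes).

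**Figure D3:**
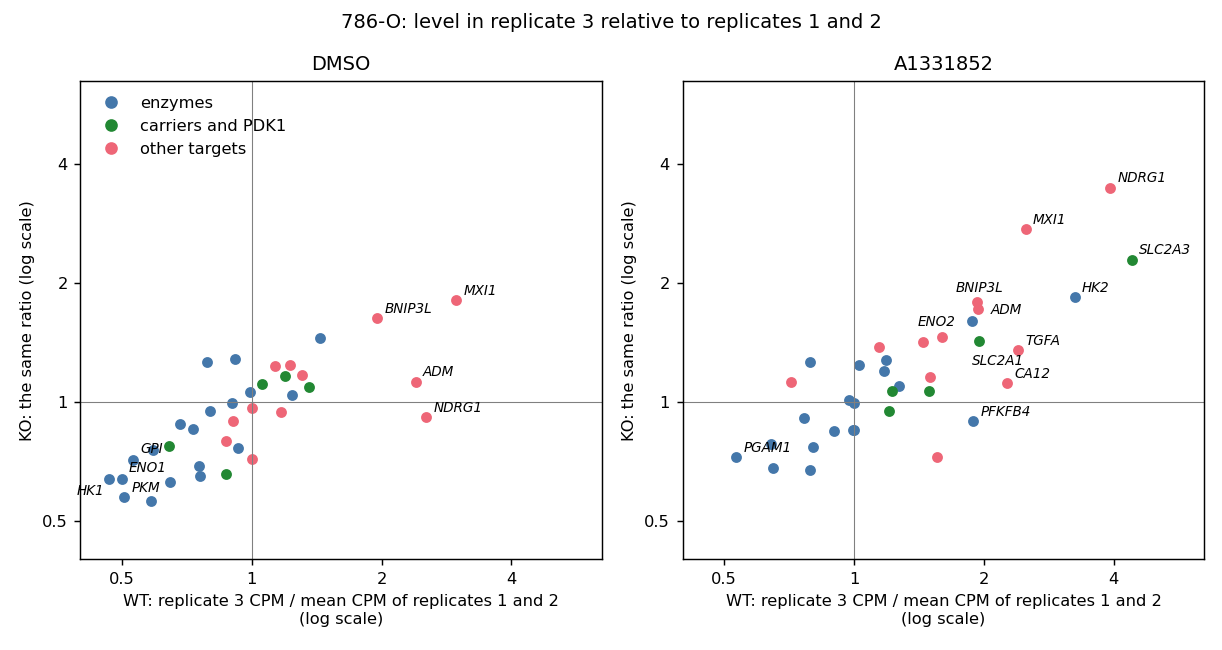
Ratio of CPM in replicate 3 to the mean CPM of replicates 1 and 2, for WT (x axis) and KO (y axis) in DMSO (left) and A1331852 (right), on log axes, for 36 members. In A1331852 NDRG1, SLC2A3, MXI1 and HK2 lie furthest to the upper right, and in DMSO most enzymes lie below 1 in both genotypes.

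In A498 the deficient cells had higher RNA than the add-back for much of the list. Here 15 of 37 members passed, 14 higher and 1 lower, against 30.2% of all 15424 genes tested, 15.1% rising and 15.1% falling. At an unadjusted p under 0.05 there were 20, against 41.2% of all genes. The higher members were 8 enzymes, the carrier SLC2A1 and 5 other targets. The median log2 change was 0.27 over the 19 enzymes and 0.26 over all 37, beside -0.01 over all genes. With add-back replicate 1 or 2 left out 8 passed, where 14.3% and 13.9% of all genes did. With deficient replicate 1 or 2 left out 18 and 19 passed, where 38.7% and 35.1% of all genes did. Each group held 2 libraries, so the calls lean on a spread estimated across genes.

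HK2 rose most among the enzymes. The gene lies at chromosome 2, 74834127 to 74893359 (hg38), with 3 motif matches in the promoter printed above. It was at 6.35 and 6.67 CPM in the add-back and 26.9 and 23.8 in the deficient libraries, a mean of 6.51 ± 0.222 (SD, n = 2) against 25.4 ± 2.16. The groups were far apart, with a log2 change of 1.94 ± 0.17 (SE; adjusted p = 1.23e-06). The hexokinase pair changed in makeup: per kilobase HK2 was 4.75 and 4.56% of HK1 plus HK2 in the add-back and 18.3 and 15.6% in the deficient cells. HK1 was at 136 and 149 CPM in the add-back and 128 and 137 in the deficient libraries, which overlapped.

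GAPDH was at 2963 and 3052 CPM in the add-back and 4522 and 5172 in the deficient libraries (log2 change 0.67 ± 0.10 (SE), adjusted p = 0.000246). PGAM1, the mutase before enolase, was at 515 and 529 in the add-back and 811 and 833 in the deficient libraries (log2 change 0.63 ± 0.11, adjusted p = 0.000565). ENO1 was at 1381 and 1355 in the add-back and 2209 and 1792 in the deficient libraries (log2 change 0.53 ± 0.12, adjusted p = 0.00367). For all 3 genes the add-back libraries were close together and both deficient libraries were higher. LDHA was at 667 and 687 CPM in the add-back and 938 and 1049 in the deficient libraries (log2 change 0.53 ± 0.11, adjusted p = 0.0025). These 4 calls and that of HK2 held when any 1 library was left out.

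The calls of smaller or thinner differences were lost when 1 add-back library was left out, which leaves 1 library in that group. GPI, which turns glucose phosphate into fructose phosphate, was at 378 and 414 CPM in the add-back and 537 and 512 in the deficient libraries (log2 change 0.38 ± 0.11 (SE), adjusted p = 0.0196). The GPI call was lost without add-back replicate 1 (log2 change 0.33) or add-back replicate 2 (log2 change 0.45), with an estimate close to that of all libraries. PFKFB3 was at 155 and 164 CPM in the add-back and 214 and 195 in the deficient libraries (log2 change 0.34 ± 0.12, adjusted p = 0.0474). Its call was lost without add-back replicate 1 (log2 change 0.31) or add-back replicate 2 (log2 change 0.38), again with a similar estimate. ENO2 was near the lower end of detection, at 10 and 20 fragments in the add-back and 43 and 33 in the deficient libraries. In CPM this was 0.552 and 1.07 in the add-back and 2.77 and 2.15 in the deficient libraries. The deficient libraries were higher (log2 change 1.57 ± 0.38, adjusted p = 0.00698), and the call was lost without add-back replicate 1 (adjusted p = 0.109). ALDOC was the member that fell, from 23.1 and 26.6 CPM in the add-back to 15.9 and 16.2 (log2 change -0.65 ± 0.15, adjusted p = 0.00508). That call was lost without add-back replicate 2 (adjusted p = 0.124).

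Among the carriers SLC2A1 was at 297 and 331 CPM in the add-back and 447 and 446 in the deficient libraries (log2 change 0.49 ± 0.11 (SE), adjusted p = 0.00573). Its call was lost without add-back replicate 1 (adjusted p = 0.174) or add-back replicate 2 (adjusted p = 0.0501). SLC16A1 was at 129 and 123 CPM in the add-back and 138 and 133 in the deficient libraries. SLC16A3 was at 355 and 372 in the add-back and 469 and 311 in the deficient libraries, with deficient replicate 2 below both add-back libraries. PDK1 ranged over 9.16 to 11.4 CPM. None of these 3 was called, and SLC16A3 passed without deficient replicate 2 (adjusted p = 0.00358).

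CA12 and NDRG1 rose most clearly among the other targets. CA12 was at 189.9 and 206 CPM in the add-back and 623 and 705 in the deficient libraries, a log2 change of 1.72 ± 0.12 (SE; adjusted p = 1.86e-07). NDRG1 was at 66 and 87.8 CPM in the add-back and 286 and 340.5 in the deficient libraries, a log2 change of 2.00 ± 0.15 (adjusted p = 3.65e-07). Both deficient libraries were more than 3 times the add-back libraries for each gene, and both calls held when any 1 library was left out. KDM3A, a histone demethylase induced by HIF, was at 33.9 and 33.8 CPM in the add-back and 44.2 and 58.2 in the deficient libraries (log2 change 0.58 ± 0.15, adjusted p = 0.0115). The KDM3A call was lost without add-back replicate 1 (adjusted p = 0.0923) or add-back replicate 2 (adjusted p = 0.104). ADM was at 31.7 and 27.4 CPM in the add-back and 43.4 and 37.2 in the deficient libraries (log2 change 0.43 ± 0.15, adjusted p = 0.0417), and its call was lost without deficient replicate 1 (adjusted p = 0.0535), add-back replicate 1 (adjusted p = 0.125) or add-back replicate 2 (adjusted p = 0.42). CA9 was called on few fragments, 4 and 3 in the add-back and 13 and 12 in the deficient libraries (log2 change 2.03 ± 0.59, adjusted p = 0.0175). DESeq2 did not call it (adjusted p = 0.13), and it was lost on leaving out any of the 4 libraries (adjusted p = 0.0558 to 0.217). CCND1 was at 154 and 179 CPM in the add-back and 172 and 160.0 in the deficient libraries and was not called.

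**Figure D4:**
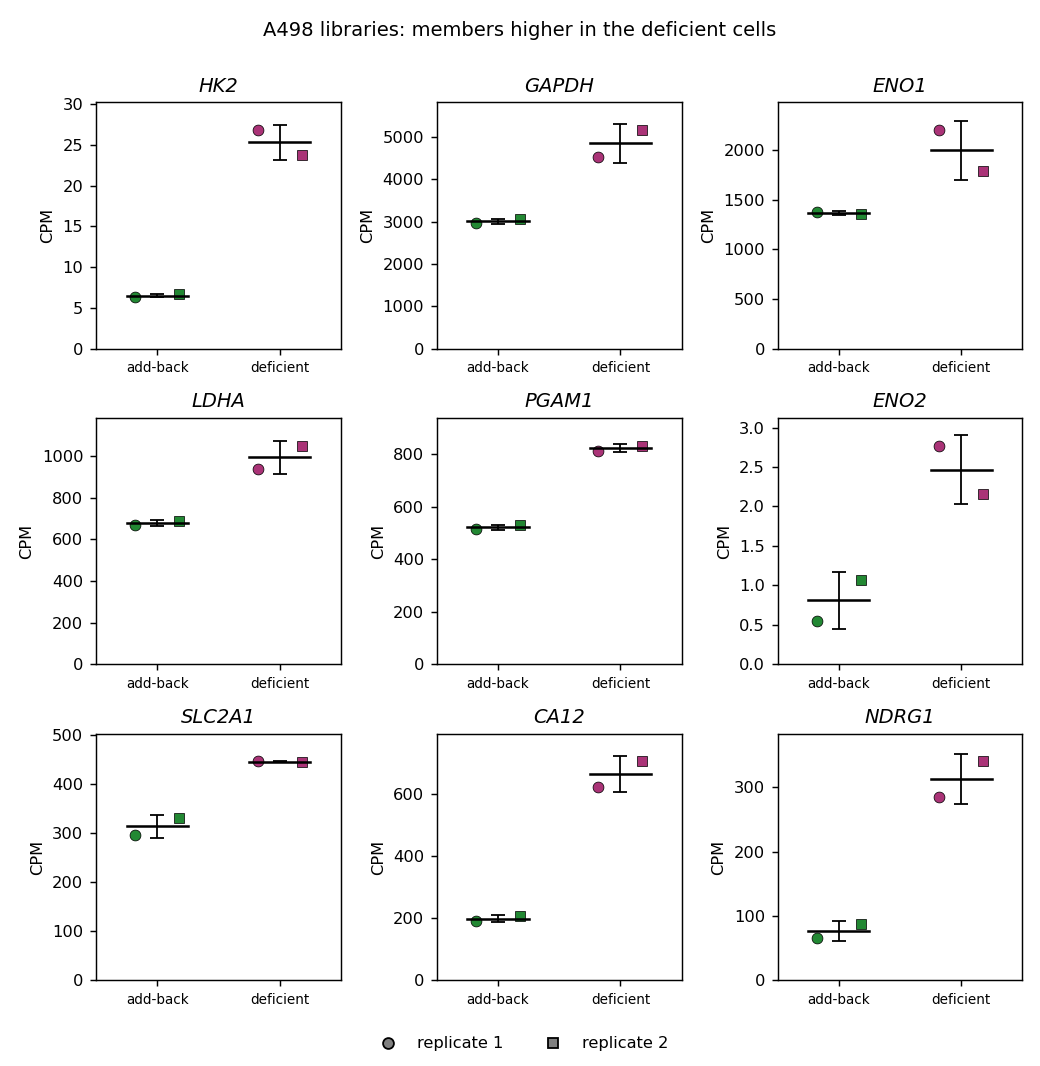
CPM of 9 members in the 4 A498 libraries, on linear axes from 0. Points are libraries, the thick bar is the group mean and the error bar is the SD (n = 2). Both deficient libraries lie above both add-back libraries in every panel, by the widest ratio for HK2, CA12 and NDRG1 and at very low levels for ENO2.

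The changes with SETD2 state differed between the lines. A test of the difference, in which the change in A498 was taken from the change in 786-O under DMSO, called 9 of 37 members, against 13.2% of all 17868 genes, and all 9 were negative (7.1% of all genes were negative and called, 6.12% positive). At an unadjusted p under 0.05 there were 14, all negative, against 27% of all genes. Line, batch 3, DMSO and the kind of engineering (knockout against add-back) cannot be told apart in it. ENO2 had the largest difference: it fell by 1.46 ± 0.27 (SE) in 786-O and was at 1.57 ± 0.38 in A498, a difference of -3.06 ± 0.58 on the log2 scale (adjusted p = 0.00277). For PFKFB3 the changes were -0.69 and 0.34, a difference of -1.06 ± 0.17 (adjusted p = 0.000913). For GAPDH they were -0.38 and 0.67, a difference of -1.07 ± 0.19 (adjusted p = 0.00184). For PFKM they were -1.07 and -0.14, a difference of -0.96 ± 0.21 (adjusted p = 0.00664). These 4 differences held when any 1 library was left out.

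ENO1 differed by -0.97 ± 0.23 on the log2 scale (SE; adjusted p = 0.0112), a call lost without deficient replicate 1 (adjusted p = 0.0601) or add-back replicate 2 (adjusted p = 0.0508). SLC16A1 differed by -0.74 ± 0.19 (adjusted p = 0.0183), a call lost without WT DMSO replicate 3 (adjusted p = 0.061), KO DMSO replicate 3 (adjusted p = 0.059), KO DMSO replicate 2 (adjusted p = 0.0528), deficient replicate 1 (adjusted p = 0.0614), deficient replicate 2 (adjusted p = 0.0517), add-back replicate 1 (adjusted p = 0.0709) or add-back replicate 2 (adjusted p = 0.101). PFKP (-0.67 ± 0.20, adjusted p = 0.0366) was not called when any of the 10 DMSO and A498 libraries was left out (adjusted p = 0.0589 to 0.16). The same 10 libraries each ended the call of SLC2A1 (-1.33 ± 0.40, adjusted p = 0.0371, then 0.065 to 0.156). They also ended that of CCND1 (-1.20 ± 0.37, adjusted p = 0.0429, then 0.0693 to 0.183). With 1 of these libraries left out 4 to 6 of 37 differences passed, the fewest without deficient replicate 1 or add-back replicate 2 (4 each). KO DMSO replicate 2, deficient replicate 2 and add-back replicate 1 gave 5 each, and without the batch term 4 passed (5.97% of all genes). CA12 was the member called in the same direction in both lines, at 1.14 ± 0.27 in 786-O under DMSO and 1.72 ± 0.12 in A498, and its difference of -0.62 ± 0.38 did not pass (adjusted p = 0.322). HK2 and NDRG1, which rose in A498, were at 0.09 ± 0.46 and 0.12 ± 0.61 in 786-O. Their differences between lines were -1.88 ± 0.68 (adjusted p = 0.0834) and -1.92 ± 0.86 (adjusted p = 0.164).

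**Figure D5:**
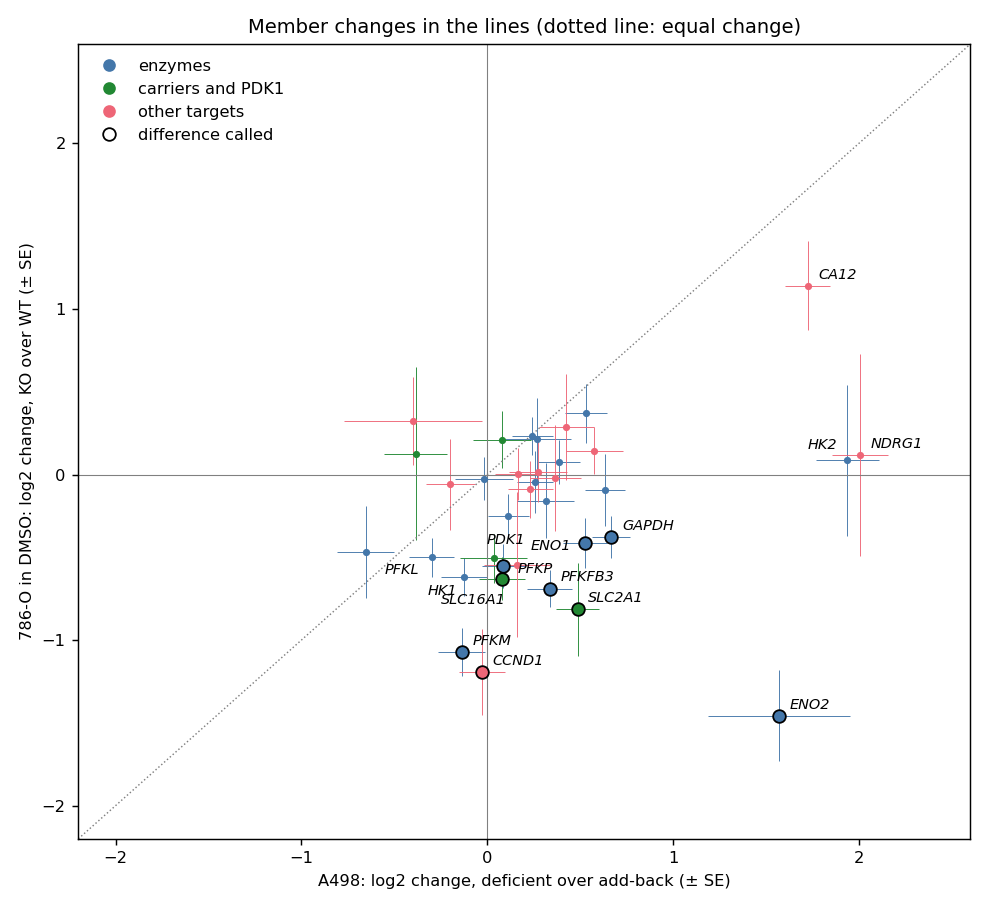
Log2 change of members between deficient and add-back A498 cells (x axis) and between KO and WT 786-O cells in DMSO (y axis), with SE bars. Points are genes coloured by role, outlined where the difference between lines was called, and the dotted line marks equal change. The 9 outlined genes lie below the dotted line, ENO2 furthest from it, and CA12 is the gene high on both axes.

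The HIF subunits themselves, measured in the same libraries, differed by line. HIF1A was at 9.54 to 22.8 CPM in 786-O. In A498 it was at 208 and 206 in the add-back and 441 and 519 in the deficient libraries (log2 change 1.19 ± 0.12 (SE), adjusted p = 6.5e-06). EPAS1 was at 88.5, 108 and 212 CPM in WT and 84.5, 101 and 165 in KO under A1331852, with replicate 3 highest in both, as for most targets. In A498 EPAS1 was at 39.2 and 48.5 in the add-back and 60.2 and 69.1 in the deficient libraries (log2 change 0.54 ± 0.15, adjusted p = 0.0134). The part of these levels in the members' changes was not tested. Of 9 listed genes of the HIF pathway 8 were tested in each fit. HIF1AN, the hydroxylase that blocks HIF activity, fell from WT to KO in DMSO (-0.54 ± 0.12 (SE), adjusted p = 0.0078) and under A1331852 (-0.72 ± 0.12, adjusted p = 0.0011). ARNT fell under A1331852 (-0.76 ± 0.16, adjusted p = 0.00443). In A498 4 of 8 passed, against 30.2% of all genes: HIF1A, EPAS1 and ARNT2 higher and VHL lower (-0.62 ± 0.17, adjusted p = 0.0129).

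Among called genes a further list of 30 HIF targets outside the members also leaned opposite ways in the lines. This list and the members were chosen with earlier results of these data known, so it is no independent check of them. From WT to KO 7 of 29 tested fell in DMSO and 0 rose, where 10.2% of all genes fell and 8.29% rose. Of the 29 estimates in DMSO 16 were negative and 13 positive, with a median log2 change of -0.12 beside -0.02 over all genes. Under A1331852 13 of 29 fell and 2 rose, where 15% of all genes fell and 13.2% rose. FAM162A, a mitochondrial protein of hypoxic cell death, fell most: it was at 16.9, 15.4 and 23.4 CPM in WT DMSO libraries and 2.4, 2.57 and 7.6 in KO, without overlap (log2 change -2.32 ± 0.24 (SE), adjusted p = 6.42e-05). PPFIA4, a synaptic scaffold protein, changed by -1.84 ± 0.27 (adjusted p = 0.000732) and CITED2, a competitor of HIF for its coactivator, by -1.11 ± 0.24 (adjusted p = 0.00674). HMOX1, which degrades haem, went up from WT to KO under A1331852 (1.43 ± 0.23, adjusted p = 0.000851). In A498 16 of 30 rose in the deficient cells and 6 fell, where 15.1% of all genes rose and 15.1% fell. LOX, which cross-links collagen, rose by 5.74 ± 0.27 (adjusted p = 6.05e-09), from 0.442 and 0.373 CPM in the add-back to 19.9 and 24.9. STC2, a secreted glycoprotein, rose by 2.16 ± 0.14 (adjusted p = 1.02e-07) and DDIT4, an inhibitor of mTOR, by 1.91 ± 0.15 (adjusted p = 4.91e-07). The difference between lines was called for 12 of 30, all negative, as for the members. Of all genes 7.1% were negative and called, and 6.12% positive.

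A list of 26 other genes of sugar and pyruvate metabolism, of which 17 or 18 were tested, had 2 of 18 called in DMSO, 3 of 18 under A1331852 and 3 of 17 in A498. These shares (11.1%, 16.7% and 17.6%) were below those of all genes (18.5%, 28.2% and 30.2%). From WT to KO 1 rose and 1 fell in DMSO: PDK2, a relative of PDK1 (0.61 ± 0.18 (SE), adjusted p = 0.0377), and PGM1, which links glycogen to glycolysis (-0.55 ± 0.14, adjusted p = 0.0202). Under A1331852 1 rose, the muscle enolase ENO3 (0.87 ± 0.23, adjusted p = 0.014), and 2 fell, PGM1 and the pyruvate carrier subunit MPC2 (-0.78 ± 0.17, adjusted p = 0.00543). In A498 PFKFB2 rose and 2 fell, TIGAR, a phosphatase that slows glycolysis (-1.97 ± 0.22, adjusted p = 1.33e-05), and PDK4 (-1.20 ± 0.43, adjusted p = 0.0458). From DMSO to A1331852 in KO, MPC2 (-1.68 ± 0.20, adjusted p = 0.000805), PDK2 (-1.03 ± 0.23, adjusted p = 0.0133) and LDHD, a lactate dehydrogenase of the other stereoisomer (-2.74 ± 0.65, adjusted p = 0.0177), fell. Of the 29 further HIF targets tested 3 rose and 4 fell there, where 6.46% of all genes rose and 7.08% fell. In WT edgeR called 0 of the 29 further targets and 0 of these 18 genes, against 0.141% of all genes. At an unadjusted p under 0.05 there were 6 and 2, against 12.8% of all genes. DESeq2 called 1 of each, against 2.89% of all genes.

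The 14 members called in no comparison still covered a wide range. PKM, TPI1 and PGK1 were abundant, at 2132 to 5224, 638 to 1051 and 525 to 764 CPM in 786-O. EGFR, the receptor for TGFA, was at 309 to 700.3 CPM in 786-O and 217 to 340.5 in A498. BHLHE40, a clock-linked repressor, was at 223 to 453 and 156 to 192, and BNIP3, a relative of BNIP3L, at 76.5 to 141 and 98.4 to 116. ANKRD37 was scarce, at 1.04 to 2.98 and 1.03 to 1.6. TGFA, SLC2A3 and SLC16A3, described above, belong here too, as do PFKFB4, LDHB, ALDOA and NDUFA4L2. Leaving out 1 library brought 12 of the 14 past the threshold in at least 1 comparison, all but ALDOA and NDUFA4L2. EGFR did so in A498 without deficient replicate 1 (log2 change 0.52, adjusted p = 0.000168). For ALDOA the range was 45.9 to 65.9 CPM in 786-O and 16.3 to 19 in A498, and for LDHB 14.6 to 32.5 and 29.4 to 43.8.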

How the data were processed

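RNA-seq counts of 16 libraries were used as the authors deposited them: whole-number fragment counts per gene name, made with featureCounts 1.5.0-p3 as paired-end, reverse-stranded (setting 2) counts over exons of GENCODE release 41, per the file headers. The headers name primary, uniquely placed alignments. Alignment was with STAR to GRCh38, per the submitters' processing notes, and the STAR version is not given in the sources used here. No per-library count column was left out, and totals were 14172118 to 36037616.

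Groups came from the sample titles, and batches from the labels. Counts were scaled by TMM, filtered with filterByExpr (minimum count 10) and tested with edgeR 4.0.16 (quasi-likelihood, R 4.3.3), called at a Benjamini-Hochberg adjusted p under 0.05 over all genes of a fit. The SE of a log2 change was worked back from the edgeR test, as the size of the change over the square root of its F statistic. The 12 libraries of 786-O entered 1 fit with group and batch, the 4 of A498 another, and all 16 the last, for the difference between lines. Gene names given in full were the members called in any comparison, and up to 4 called genes with the smallest adjusted p per wider list. Of the wider lists, 1 named result is not reported here. The members and lists were chosen with earlier results of these data known. Scripts were tested on simulated data. Python 3.11.15, pandas 2.3.3 and matplotlib 3.10.9 made tables and figures.

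Pairing was checked on log2 CPM (prior count 2) as the correlation across genes of same-numbered libraries' deviations from their group means. The labels give the numbers but say nothing of a shared day. Between KO and WT r was 0.496 to 0.724 in DMSO and 0.228 to 0.465 under A1331852, and these numbers were taken as pairs. Replicates 1 and 2 of unlike number gave 0.497 and 0.549 in DMSO and 0.191 and 0.124 under A1331852. In DMSO r therefore cannot show that replicates 1 and 2 pair by number. Results with the replicate block rest on the numbers in the labels. From DMSO to A1331852 r was -0.05 to 0.06 and in A498 0.0872, so these numbers were not taken as pairs. Alternatives were other size factors, no filter, DESeq2 1.42.0, the replicate block, no batch term, single batches and each library left out. DMSO replicates 1 and 2 of a genotype differed by more than sampling noise in a chi-square test (median per gene 0.951 and 0.899, where 0.455 is the value under sampling noise) and were kept as separate. They were still the closest replicates, as the other pairs within a group gave 1.28 to 11.8. The comparison within batch 2 rests on these libraries alone.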

Additional observations from a re-analysis of the deposited data

Results flagged for a closer look

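For 9 members the test of the difference between lines itself passed: the log2 change from WT to KO in 786-O under DMSO was more negative than the change from add-back to deficient cells in A498. The difference was -0.96 for PFKM, -0.67 for PFKP and -1.06 for PFKFB3, the genes of the committing step. It was -1.07 for GAPDH, -0.97 for ENO1 and -3.06 for ENO2, enzymes of the lower pathway. For the carriers SLC2A1 and SLC16A1 it was -1.33 and -0.74, and for CCND1 it was -1.20. PFKM was lower with SETD2 loss in both lines by estimate, at -1.07 in 786-O and -0.14 in A498, where it was not called.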

How the results depend on the processing

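Other size factors left the numbers of members called within 1.5 times of those reported. For KO against WT in DMSO (10 members and 3001 genes called) the counts were 6 and 1490 without the batch term, 0 and 53 in batch 1, and 25 and 9276 in batch 2. The replicate block gave 4646 genes there. For KO against WT under A1331852 (11 and 4588) the members called were 18 with the replicate block, 18 with both A1331852 replicates 3 left out (chosen after seeing the data) and 7 in batch 1, and the genes called were 2489 without the batch term and 2376 in batch 1. For A1331852 in WT (0 and 23) the counts were 10 and 909 with no filter, 3 and 415 with DESeq2, 3 and 214 with both replicates 3 left out, 6 genes without the batch term and 0 genes in batch 1. In KO (2 and 2201) the members were 7 with no filter, 5 with DESeq2, 0 (and 85 genes) in batch 1, and 10 (and 5227 genes) with both replicates 3 left out. The replicate block across treatments, whose numbers did not pair, gave 15 and 2831 in WT and 18 and 4311 in KO. For the interaction (0 and 48) the counts were 3 and 647 with no filter, 0 and 371 with DESeq2, 2 and 294 with the block, 1 and 929 with both replicates 3 left out, 7 genes without the batch term and 0 in batch 1. For the difference between lines (9 and 2362) they were 4 and 1067 without the batch term, and 13 and 3692 with the block, while upper-quartile factors moved the median of all genes from -0.03 to 0.08 and called 6 members, all negative. In A498 the block, on 2 pairs with r of 0.0872, gave 18 members against 15. Leaving out 1 library gave 4 to 8 members and 1614 to 1777 genes in DMSO, 9 to 16 and 3417 to 5455 under A1331852, 0 to 3 and 0 to 64 for A1331852 in WT, 1 to 3 and 781 to 2602 in KO, 0 (and 0 to 2.96% of genes) for the interaction, 8 to 19 and 2246 to 6272 in A498, and 4 to 6 and 1151 to 1782 between lines. In A498 the library then alone in its group was assumed to vary like the rest. Signs turned for SLC2A3 between KO and WT under A1331852 (0.47 with both replicates 3 left out, and -0.61 to 0.98 over single omissions, the highest without WT replicate 3), for HK1 in KO under A1331852 (-0.0873 without the batch term) and for BNIP3L there (0.45 with the block beside batch). Beside fewer libraries or a changed gene set, the cause was not tested. Few fragments (CA9, NDUFA4L2, ENO2 in A498) limit what could be detected.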

Other observations

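Isozyme shares of summed CPM per kilobase differed between libraries, and no test was run on them. ALDOC made up 67.5 and 67.3% of ALDOA plus ALDOC in the add-back and 57.7 and 56.3% in the deficient A498 libraries, and at most 3.21% in 786-O. Both shares are uncertain, since ALDOA shares exon bases with another gene. HK2 made up 16.8, 15.9 and 24.1% of HK1 plus HK2 in WT DMSO libraries of 786-O and 27.7, 26.5 and 27.5% in KO. Under A1331852 the HK2 share was 15.6, 33.2 and 51.8% in WT and 28.1, 39.4 and 48.8% in KO, with replicate 3 the highest in each. HK2 thus took a larger share in most 786-O libraries than in any A498 library.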
